A study of Homo sapiens with 6 samples.

Results

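PARP9, PARP10, PARP12, PARP14, DTX3L and ZC3HAV1 are genes of ADP-ribosylation that interferon is known to induce, together with a ubiquitin ligase that works with them. They were chosen by gene symbol, and the 6 genes are 6 of the 62260 gene rows in the files. RNA was sequenced from TYK-nu cells, an ovarian cancer line, in 3 libraries of cells with ZNFX1 knocked out (ZNFX1 KO) and 3 libraries of wild-type cells (WT). All cells were untreated, were grown in RPMI medium with serum, and carry the same batch number in the labels. ZNFX1, a zinc finger protein with a helicase domain, is known to sense viral RNA, and the comparison asks which RNAs differ where it is knocked out. Since the labels give no second KO clone and no method of knockout, loss of ZNFX1 and any other difference of the KO line from the WT line cannot be told apart.

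ADP-ribosyltransferases of the PARP family attach ADP-ribose from NAD to proteins and nucleic acids, and most interferon-induced members attach a single unit. Type I interferon acts through JAK kinases and the transcription factor complex ISGF3, which binds a repeated GAAA motif, the interferon-stimulated response element, at target promoters. PARP9 pairs with the ubiquitin ligase DTX3L, PARP14 carries macrodomains that read and remove ADP-ribose, PARP12 has zinc fingers and sits at the Golgi and in stress granules, PARP10 modifies single proteins, and ZC3HAV1 (ZAP) is a catalytically inactive member that binds CpG-rich viral RNA for decay.

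Promoter windows were searched for letters of the response element. A match, or none, does not decide whether a gene has the element. The letters GAAANNGAAA, searched on both strands, were found in 1255 of 35116 RefSeq promoter windows (3.57%) running from 250 bases before to 50 after a start site (GRCh38.p14). Of the 6 genes, 5 have an entry, and PARP10 has none. Unlike the share of windows, the next counts are per gene, with a match in any window of the gene. By gene, 4 of these 5 hold the motif, against 18 of 27 other interferon-stimulated genes and 0 of 10 other PARP family genes with an entry. PARP9 also has a window without a match (122564735 to 122565034). Each line below runs 5′ to 3′ on the strand of its gene, with the motif in capitals.
PARP9: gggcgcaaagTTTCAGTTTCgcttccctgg
DTX3L: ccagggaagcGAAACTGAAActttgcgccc
PARP14: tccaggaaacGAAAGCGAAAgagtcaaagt
PARP12: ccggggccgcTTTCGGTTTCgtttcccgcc
The PARP9 and DTX3L lines are the same 10 bases read from opposite strands (chromosome 3, 122564332 to 122564341), since the genes start head to head and their annotated ends overlap by 340 bases. The PARP14 match lies at 122680810 to 122680819 on chromosome 3 and the PARP12 match at 140062952 to 140062961 on chromosome 7. ZC3HAV1 has no match in its window (chromosome 7, 139109671 to 139109970, minus strand), which says only that these letters are not there. Another motif searched, TTCNNNGAA, was found in 7.66% of all windows, and in 2 of 5 members and 8 of 27 other interferon-stimulated genes. The 2 members are PARP14 (122680799 to 122680807) and ZC3HAV1 (139109816 to 139109824, ttccgggaa, in lower case below). The upstream bases of ZC3HAV1 (chr7:139109721-139109970) are shown with TATAAA, found in 11.5% of all windows and in none of the other member windows, in capitals.
ZC3HAV1: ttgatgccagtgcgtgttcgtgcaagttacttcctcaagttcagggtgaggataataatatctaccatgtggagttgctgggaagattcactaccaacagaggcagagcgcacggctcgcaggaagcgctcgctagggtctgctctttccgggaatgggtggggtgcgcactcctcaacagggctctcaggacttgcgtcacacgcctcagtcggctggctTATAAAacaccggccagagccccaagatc

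The libraries held between 19115530 and 21036063 fragments on gene rows. The labels call the libraries biological replicates, and where nothing further shows separate cultures, p-values measure only the spread between these libraries. The library WT 2 stood apart in interferon-stimulated genes, as the values below show. ZNFX1 itself had 103, 70.5 and 75.1 CPM (gene fragments scaled to a common library size after TMM) in ZNFX1 KO 1 to 3, against 130, 208 and 109 CPM in WT 1 to 3, so that the groups did not overlap. The log2 fold change of ZNFX1, KO over WT, of -0.85 (SE 0.27) missed the threshold (edgeR quasi-likelihood test, adjusted p = 0.218). It was -0.53 without WT 2 (same test, adjusted p = 0.507). Only 1 of 18 alternatives called ZNFX1, the fit without WT 3 (-1.01), where 9.02% of genes were called. An mRNA can persist in a knockout, so this is a partial check of the labels. Of 8 epithelial and ovarian carcinoma markers 4 had at least 10 fragments in a library, with PAX8, KRT7, CDH1 and MUC16 at or near 0. EPCAM was at 0 in all KO libraries, against 0.671, 0.736 and 0.132 TPM in WT 1 to 3. KRT18 averaged 151 ± 32.3 CPM in the KO and 103 ± 18.0 CPM in WT (SD, n = 3 each) and was not called. Its KO libraries were all above the WT libraries in CPM, as for 1330 of 14166 tested genes, though not in TPM. KRT8 went the other way, at 14.7 ± 4.72 CPM in the KO and 24.4 ± 12.9 CPM in WT (log2 fold change -0.73). WT1 stood at 0.15, and neither was called. All 5 endothelial markers were read, with a summed level of 133 to 191 TPM in the KO and 110 to 211 TPM in WT, TPM being Salmon's level per transcript length. Of the leukocyte markers PTPRC was at 0 in all libraries, as were CLEC4C and LILRA4 of plasmacytoid dendritic cells, and no fibroblast marker reached 10 fragments. IL3RA, the remaining plasmacytoid dendritic marker, was low, at 0.809 ± 0.255 CPM in the KO and 0.391 ± 0.130 CPM in WT (log2 fold change 1.03). Every KO library of IL3RA lay above the WT libraries, and it was not called. The 7 leukocyte markers summed to 81.8 to 110 TPM in the KO and 104 to 182 TPM in WT, almost all of it CD68, a lysosomal protein that other cells also make. LYZ (lysozyme) averaged 4.69 ± 2.999 CPM in the KO and 1.43 ± 1.24 CPM in WT (SD, n = 3 each), and its groups, like those of KRT18, were apart in CPM and not in TPM. The part of these markers in the results was not tested.

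Within the 6 genes, 5 had lower mean levels in the KO and 1, ZC3HAV1, did not differ between groups beyond the spread. None of the 6 was called at an adjusted p under 0.05, where 103 of 14166 tested genes were called (0.727%, 0.459% lower in the KO). At an unadjusted p under 0.05, 5 of 6 passed, all lower, where 15.1% of all tested genes passed and 9.19% were lower. Other settings called more genes overall and some of the 6: with no filter 3 of 6 where 2.11% of genes were called, with DESeq2 1 of 6 where 4.09% were, and without WT 3 again 3 of 6 where 9.02% were. Across the 5, the mean in the KO was between 22.4% and 42.1% of the WT mean in CPM, and in each of the 5 the highest library was WT 2. In bulk RNA, fewer cells that express a gene and less RNA per cell cannot be told apart.

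**Figure D1:**
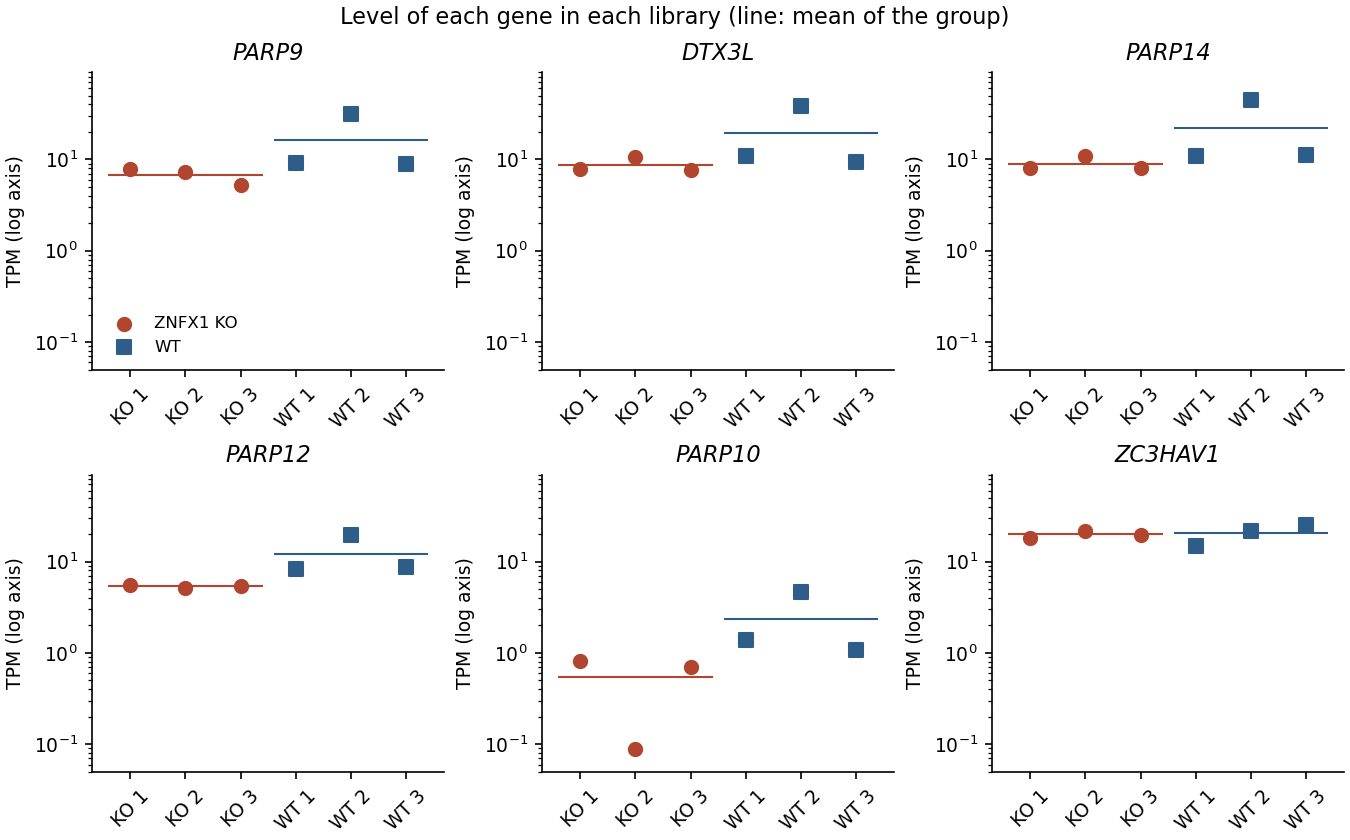
TPM of each gene (log axis) in the 3 ZNFX1 KO libraries (circles, left) and the 3 WT libraries (squares, right), with a line at the mean of each group. WT 2 is the highest library for every gene but ZC3HAV1, and PARP10 is lowest in KO 2, at 0.0882 TPM.

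PARP9 (ENSG00000138496.17, chromosome 3, 122527924 to 122564577, minus strand, GRCh38) encodes a macrodomain protein that binds ADP-ribose and pairs with DTX3L. It had 7.77, 7.19 and 5.21 TPM in ZNFX1 KO 1 to 3, against 9.10, 31.6 and 8.85 TPM in WT 1 to 3. In TPM the KO libraries were all below the WT libraries, as for 12.0% of tested genes, while in CPM KO 1, at 44.1, lay above WT 3, at 42.1. The CPM averaged 36.6 ± 7.23 in the KO and 94.4 ± 78.3 in WT (SD, n = 3 each). A log2 fold change of -1.37 (SE 0.50) was not called (edgeR quasi-likelihood test, adjusted p = 0.271, range 0.0393 to 0.657 over 18 alternatives). The exact two-sided permutation test of log2-CPM gave p = 0.2, where 0.1 is the smallest that 3 against 3 libraries allow. It was -0.43 without WT 2, and -1.69 and called without WT 3.

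DTX3L (ENSG00000163840.10, chromosome 3, 122564238 to 122575203, plus strand) encodes the Deltex-family E3 ubiquitin ligase of that pair. It had 7.77, 10.5 and 7.68 TPM in ZNFX1 KO 1 to 3, against 10.8, 38.3 and 9.34 TPM in WT 1 to 3. The groups overlapped, since KO 2 lay above WT 3, and the KO libraries differed less among themselves than WT 2 differed from the other two WT libraries. The CPM averaged 70.8 ± 5.91 in the KO and 178 ± 159 in WT (SD, n = 3 each). The log2 fold change of -1.33 (SE 0.53) was not called (edgeR quasi-likelihood test, adjusted p = 0.299, range 0.0489 to 0.778), and the exact permutation p was 0.2. It was -0.29 without WT 2, and -1.69 and called without WT 3. The kit marks strand, but whether the counting used it is not given in the sources used here, so reads in the 340 shared bases could have gone to either gene. These bases are shared by the annotated gene spans, and whether exons overlap there was not examined.

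PARP14 (ENSG00000173193.15, chromosome 3, 122680618 to 122730840, plus strand) encodes the largest of these ADP-ribosyltransferases. It had 8.05, 10.8 and 8.12 TPM in ZNFX1 KO 1 to 3, against 10.98, 44.2 and 11.1 TPM in WT 1 to 3. KO 2 lay just under WT 1 in TPM, and in CPM, at 112, it lay just above WT 3, at 111. The CPM averaged 103 ± 8.03 in the KO and 274 ± 255 in WT (SD, n = 3 each). Its log2 fold change of -1.40 (SE 0.55) was not called (edgeR quasi-likelihood test, adjusted p = 0.293, range 0.0506 to 0.732), with an exact permutation p of 0.2. Without WT 2 it was -0.29.

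PARP12 (ENSG00000059378.13, chromosome 7, 140023744 to 140063721, minus strand) encodes a zinc finger ADP-ribosyltransferase that adds single units. It had 5.50, 5.18 and 5.48 TPM in ZNFX1 KO 1 to 3, against 8.39, 19.6 and 8.73 TPM in WT 1 to 3. The groups did not overlap in CPM either, as for 20.2% of tested genes (10.8% with the KO below). The KO libraries were close together (23.8 ± 3.11 CPM), against 56.5 ± 33.8 CPM in WT (SD, n = 3 each). The log2 fold change was -1.25 (SE 0.37), not called in edgeR (adjusted p = 0.193, range 0.0201 to 0.511), and the exact permutation p was 0.1. Without WT 2 the log2 fold change was -0.64 (SE 0.20) and was not called (edgeR quasi-likelihood test, adjusted p = 0.344). Without WT 3 it was -1.50 and was called, and with all libraries it was called by DESeq2 (-1.24) and in edgeR with no filter (-1.21).

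PARP10 (ENSG00000178685.14, chromosome 8, 143977153 to 144012772, minus strand) encodes an enzyme that adds single ADP-ribose units to proteins. It had 0.822, 0.0882 and 0.710 TPM in ZNFX1 KO 1 to 3, against 1.37, 4.66 and 1.07 TPM in WT 1 to 3. The KO libraries were all below the WT libraries, as for 12.0% of tested genes in TPM and 10.8% in CPM. PARP10 was the lowest of the 6 genes in every library. The CPM averaged 2.92 ± 2.22 in the KO and 13.0 ± 11.8 in WT (SD, n = 3 each). The log2 fold change of -2.16 (SE 0.82) was not called (edgeR quasi-likelihood test, adjusted p = 0.285, range 0.0350 to 0.731), and the exact permutation p was 0.1. It was -1.11 without WT 2 and -1.62 without KO 2. The gene row of KO 2 held 7.96 fragments, and the annotated gene overlaps GRINA over 3358 bases and SPATC1 over 359 bases on the opposite strand. GRINA averaged 105 ± 15.4 CPM in the KO and 160 ± 38.5 CPM in WT (SD, n = 3 each, log2 fold change -0.61). Among the alternatives run, GRINA was called only without WT 3 (-0.76), where 9.02% of genes were called. These overlaps are of annotated gene spans, introns included, and whether exons overlap was not examined. The use of strand in counting is not known either, and the part of GRINA reads in the PARP10 values was not tested.

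ZC3HAV1 (ENSG00000105939.14, chromosome 7, 139043520 to 139109719, minus strand) encodes ZAP, which binds viral RNA and recruits decay factors. It had 18.4, 21.9 and 19.6 TPM in ZNFX1 KO 1 to 3, against 14.8, 21.6 and 25.0 TPM in WT 1 to 3. The KO libraries lay inside the range of the WT libraries. The CPM averaged 164 ± 9.53 in the KO and 157 ± 26.7 in WT (SD, n = 3 each). The log2 fold change was 0.06 (SE 0.18; edgeR quasi-likelihood test, adjusted p = 0.888, range 0.681 to 0.992), and the exact permutation p was 0.9. Its sign turned with library scaling (-0.01 with library totals alone) and without WT 1 (-0.07), so no direction is given.

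Much of the difference in the 5 lower genes went with the library WT 2. In CPM, WT 2 stood above the mean of WT 1 and WT 3 by 3.73-fold for PARP9, 4.16-fold for DTX3L, 4.48-fold for PARP14, 2.57-fold for PARP12 and 4.2-fold for PARP10, and by 1.19-fold for ZC3HAV1. A ratio of at least 2 was found in 4.71% of tested genes. Against the mean of WT 1 and WT 3 alone, the KO mean was 74.1% for PARP9, 81.8% for DTX3L, 81.6% for PARP14, 64.0% for PARP12, 46.2% for PARP10 and 111% for ZC3HAV1. ZNFX1 was also highest in WT 2, at 1.74 times the mean of WT 1 and WT 3, and any link between these levels was not tested. Without WT 2, 5 of 6 log2 fold changes stayed negative and none was called (edgeR adjusted p 0.344 to 0.893), where 0.393% of genes were called. The median of the 6 was -1.35 with all libraries and -0.36 without WT 2, beside -0.01 and -0.0026 over all tested genes.

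**Figure D2:**
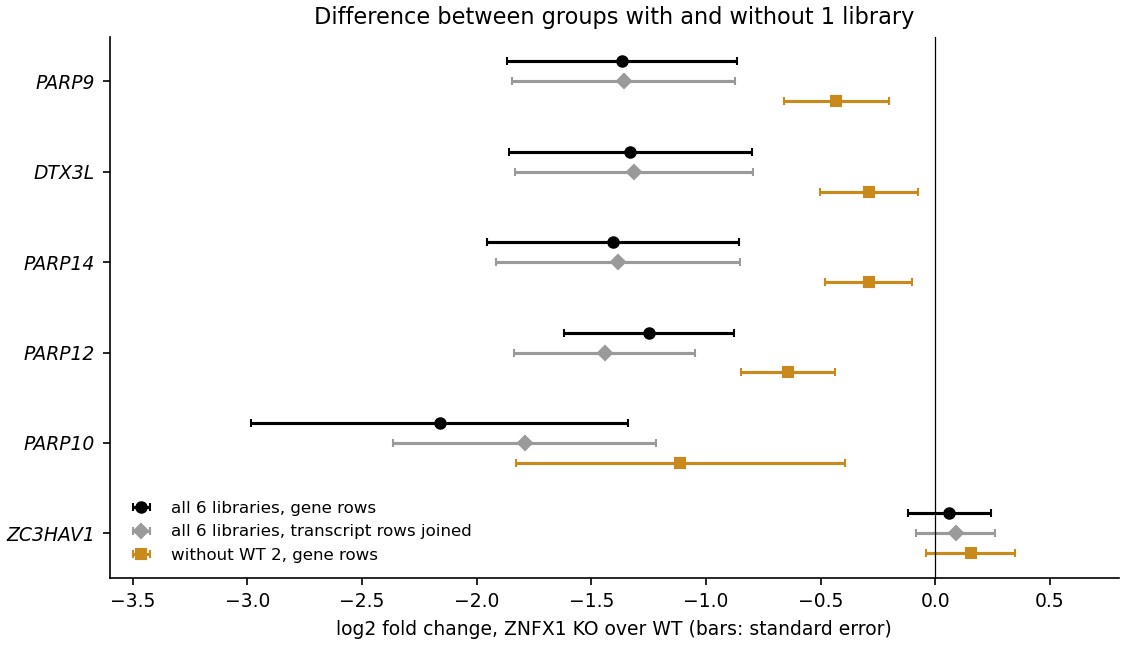
log2 fold change of ZNFX1 KO over WT for each gene with its standard error, from all 6 libraries on gene rows (circles), with transcript rows joined to their gene (diamonds) and without WT 2 (squares). The squares of PARP9, DTX3L and PARP14 sit between -0.43 and -0.29, against -1.40 to -1.33 for the circles.

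The other interferon-stimulated genes were also highest in WT 2. Of 32 genes listed, 28 were tested and 0 were called, 15 were lower at an unadjusted p under 0.05 and 0 higher, and all 28 log2 fold changes were negative, beside 7255 of all 14166 tested genes. Their median was -1.22, and -0.41 without WT 2, where 21 of 28 stayed negative. WT 2 was the highest library in 28 of 28, as it was in 6 of the 6 genes on the log2-CPM scale, beside 27.4% of tested genes. For ZC3HAV1 the lead was narrow, at 175.9 CPM in WT 2 against 174.7 CPM in KO 2, and in TPM WT 3 was the highest. The KO libraries were all below the WT libraries in 6 of 28, beside 10.8% of tested genes. ISG15, a ubiquitin-like modifier, averaged 66.0 ± 27.1 TPM in the KO and 232 ± 204 TPM in WT (SD, n = 3 each), with a log2 fold change of -1.86 that was not called. IFI6, an antiviral membrane protein, averaged 43.9 ± 19.8 TPM in the KO and 184 ± 157 TPM in WT (-2.11), and OAS2, an RNA-activated oligoadenylate synthase, 44.2 ± 15.9 TPM in the KO and 67.7 ± 27.2 TPM in WT (-0.65). BST2 (tetherin) averaged 31.7 ± 5.79 TPM in the KO and 40.5 ± 12.6 TPM in WT (-0.34). Of these, IFI6 alone was called without WT 3 (-2.43), where 9.02% of genes were called. Without WT 2, IFI6 stood at -1.01. MX2, XAF1, EPSTI1 and CMPK2 were not tested, and CMPK2 was at 0 in all libraries.

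**Figure D3:**
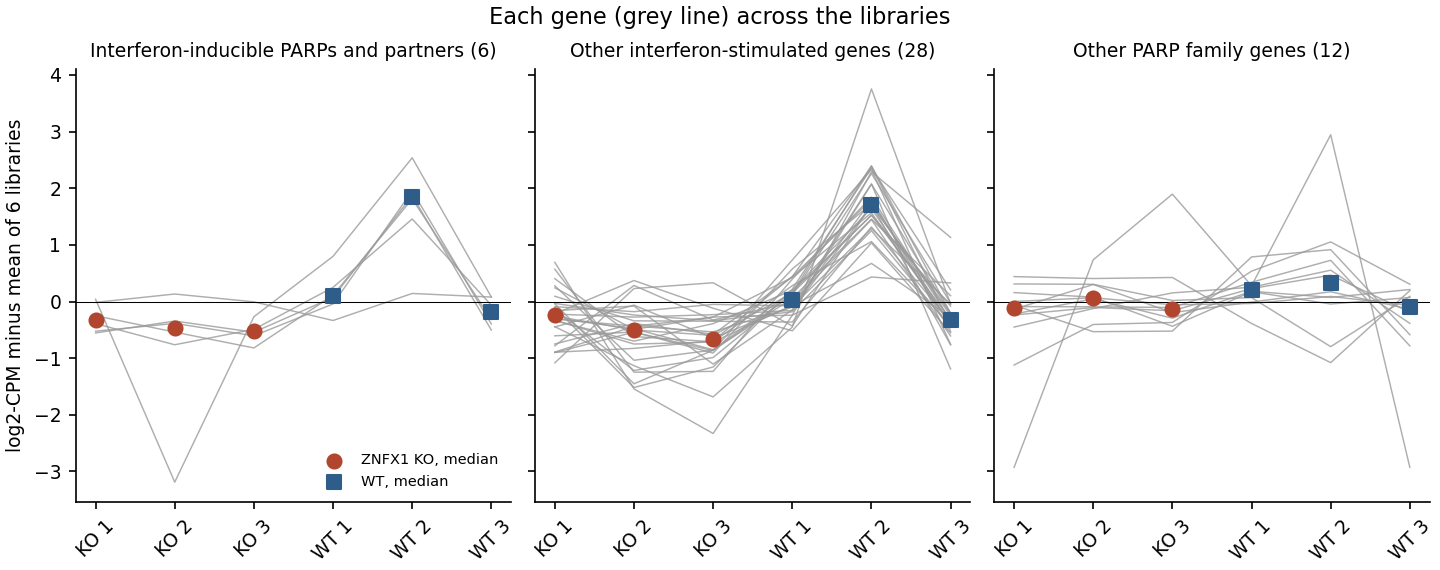
log2-CPM of each gene minus its mean over the 6 libraries (grey lines), with the median of the list in each ZNFX1 KO library (circles, left) and each WT library (squares, right). The medians in WT 2 are 1.84 for the 6 genes, 1.71 for 28 other interferon-stimulated genes and 0.32 for 12 other PARP family genes.

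The interferon system upstream was read from its own list. No interferon ligand of 7 listed was tested, and IFNK and IFNL2 were at 0 in all libraries. Of 12 genes of interferon signalling, 12 were tested, 0 were called, 8 had a negative log2 fold change and 4 of these an unadjusted p under 0.05, with a median of -0.31 (-0.12 without WT 2). IRF9, the DNA-binding part of ISGF3, averaged 10.5 ± 0.800 TPM in the KO and 21.7 ± 12.0 TPM in WT (-1.13). JAK1, the kinase shared by these receptors, averaged 62.1 ± 20.1 TPM in the KO and 53.5 ± 12.1 TPM in WT (0.16), and IFNGR2, a chain of the interferon gamma receptor, 55.5 ± 2.08 TPM in the KO and 62.7 ± 8.43 TPM in WT (-0.23). IRF9 was called without WT 3 (-1.47), where 9.02% of genes were called, and stood at -0.58 without WT 2. In CPM, WT 2 stood at 2.38 times the mean of WT 1 and WT 3 for IRF9. None of 9 genes of this list with a promoter entry held GAAANNGAAA.

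Joining each gene's separately listed transcript rows moved PARP10 and PARP12 the most. The files list 40 transcripts of the 6 genes in rows of their own, outside the gene rows. DTX3L has no such row, and the gene rows of PARP9, PARP14 and ZC3HAV1 held at least 97.0% of their fragments in each library. For PARP10 the gene row held 84.2%, 11.7% and 89.4% of the fragments in ZNFX1 KO 1 to 3, against 91.9%, 84.1% and 81.8% in WT 1 to 3. KO 2 alone was low, and in it PARP10-209, annotated as a target of nonsense-mediated decay, was given 37.0 fragments, against 0 in the other 5 libraries. Joined, PARP10 had 113, 68.0 and 80 fragments in ZNFX1 KO 1 to 3, against 168, 623 and 127 in WT 1 to 3. The groups did not overlap here either, where on gene rows 10.8% of tested genes had the KO below in CPM. The joined log2 fold change was -1.79 (edgeR quasi-likelihood test, adjusted p = 0.186) with all libraries and -0.71 without WT 2.

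For PARP12 the gene row held 80.7%, 79.0% and 87.9% of the fragments in ZNFX1 KO 1 to 3, against 69.7%, 69.1% and 82.1% in WT 1 to 3. The shares overlapped between groups through WT 3. Over all libraries the transcript row with the most fragments was PARP12-207, annotated with a retained intron, at 62.5, 72.1 and 0 fragments in ZNFX1 KO 1 to 3, against 212, 475 and 95.9 in WT 1 to 3. Every KO library was below every WT library in that row as well, and the share of all transcript rows where this holds was not counted. Joined, the log2 fold change of PARP12 was -1.44 (edgeR quasi-likelihood test, adjusted p = 0.130) and -0.78 without WT 2.

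**Figure D4:**
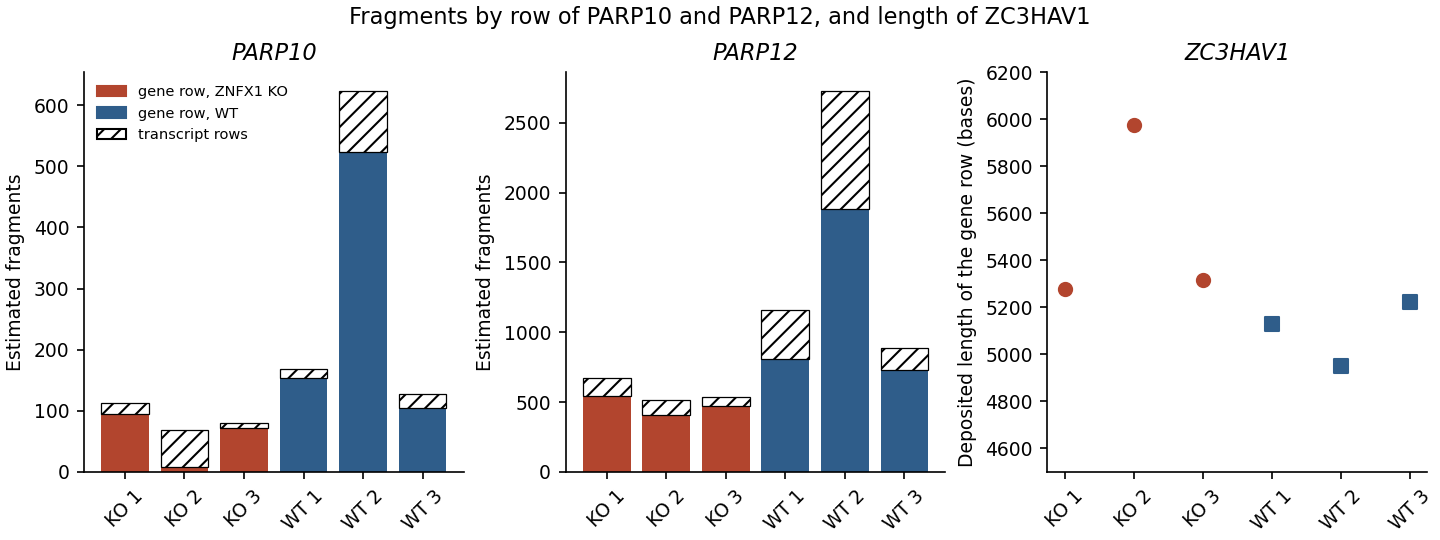
Estimated fragments of PARP10 and PARP12 in each library, split into the gene row (filled) and separately listed transcript rows (hatched), and the deposited length of the ZC3HAV1 gene row (axis not from 0), with ZNFX1 KO left of WT. In KO 2 most PARP10 fragments lie in transcript rows, and the ZC3HAV1 length is 5277 to 5977 in the KO and 4949 to 5224 in WT.

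The deposited length of a gene row varied between libraries for 4 of the 6 genes. It was the same in every library for PARP12 (3021 bases) and PARP14 (7694 bases). ZC3HAV1 had lengths of 5277, 5977 and 5317 bases in ZNFX1 KO 1 to 3, against 5131, 4949 and 5224 bases in WT 1 to 3. Every KO library was longer than every WT library, as in 6.0% of 7711 tested genes whose length varied by at least 1% (10.2% with groups apart in either direction), and KO 2 was the longest. The means were 5524 ± 393 bases in the KO and 5101 ± 140 bases in WT (SD, n = 3 each). GENCODE 29 gives ZC3HAV1 transcripts of 7100, 4776 and 3182 bases beside 1 of 1487 bases that has a row of its own. A length that varies by library would arise if the row averaged transcripts by their abundance, but how the authors' files set it is not given in the sources used here. DTX3L was shorter in KO 1 and KO 2 (5308 and 5537 bases, against 5768 in KO 3 and 5768, 5686 and 5768 in WT 1 to 3), and PARP9 was shortest in KO 1 (3541 bases) and WT 2 (3591 bases).

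Set per length, the genes kept nearly the same order in each library. By TPM ZC3HAV1 was the highest of the 6 in 5 libraries, and in WT 2 it was behind PARP14, DTX3L and PARP9. PARP14 and DTX3L stayed close, at a TPM ratio of 1.04, 1.03 and 1.06 in ZNFX1 KO 1 to 3 and 1.02, 1.15 and 1.19 in WT 1 to 3. The highest of these ratios was 1.17 times the lowest, although each gene differed more than 4-fold between libraries. The ratio of PARP9 to DTX3L, the partners of the complex, was 1.00, 0.685 and 0.678 in ZNFX1 KO 1 to 3 and 0.845, 0.824 and 0.948 in WT 1 to 3, and the groups overlapped (exact permutation p = 0.4). The ratio of ZC3HAV1 to DTX3L was 2.36, 2.08 and 2.55 in ZNFX1 KO 1 to 3, against 1.37, 0.563 and 2.68 in WT 1 to 3, and did not separate the groups (exact permutation p = 0.4). PARP14 lay above DTX3L in all 6 libraries, and PARP9 lay below DTX3L in all 3 WT libraries.

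PARP9, DTX3L and PARP14 lie within 203 kb on chromosome 3, and the tested genes around them lay closer to 0. Within 500 kb, 12 other genes were tested and 0 called, with log2 fold changes between -0.31 and 0.45 and a median of -0.10. WT 2 stood at 0.681 to 1.47 times the mean of WT 1 and WT 3 in them, against 3.73 to 4.48 times in the 3 genes. PARP15, a PARP gene that lies between DTX3L and PARP14, had 0.473 ± 0.111 TPM in the KO and 0.573 ± 0.111 TPM in WT (SD, n = 3 each, log2 fold change -0.31). KPNA1, a nuclear import receptor, had a log2 fold change of 0.19. ZC3HAV1 and PARP12 lie 914 kb apart on chromosome 7. Of 5 tested genes within 500 kb of PARP12, 4 had a negative log2 fold change and 0 were called, with a range of -1.33 to 0.07 and a median of -0.29. KDM7A, a histone demethylase gene, stood at -0.95, and KDM7A-DT, the noncoding gene that starts beside it, at -1.33, lower than PARP12 itself, with 1.83 ± 0.514 CPM in the KO and 4.61 ± 1.41 CPM in WT (SD, n = 3 each). Both were called without WT 3 (-1.24 for KDM7A and -1.49 for KDM7A-DT), where 9.02% of genes were called. The 10 tested genes around ZC3HAV1 lay between -0.45 and 0.41. Around PARP10, 39 genes were tested and 33 had a negative log2 fold change, beside 7255 of all 14166 tested genes. Their log2 fold changes ran from -4.39 to 0.48, with a median of -0.29. In them WT 2 stood at 0.347 to 5.05 times the mean of WT 1 and WT 3. Among the 39, 1 was called, where 0.727% of all tested genes were. This was OPLAH, which encodes 5-oxoprolinase, at -2.19 (edgeR quasi-likelihood test, adjusted p = 0.0281, range 9.8e-08 to 0.177 over its alternatives). OPLAH averaged 4.13 ± 0.655 CPM in the KO and 18.9 ± 7.04 CPM in WT (SD, n = 3 each) and was not called without KO 1 (-2.27), KO 2 (-2.22), KO 3 (-2.05), WT 1 (-2.06) or WT 2 (-1.99).

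**Figure D5:**
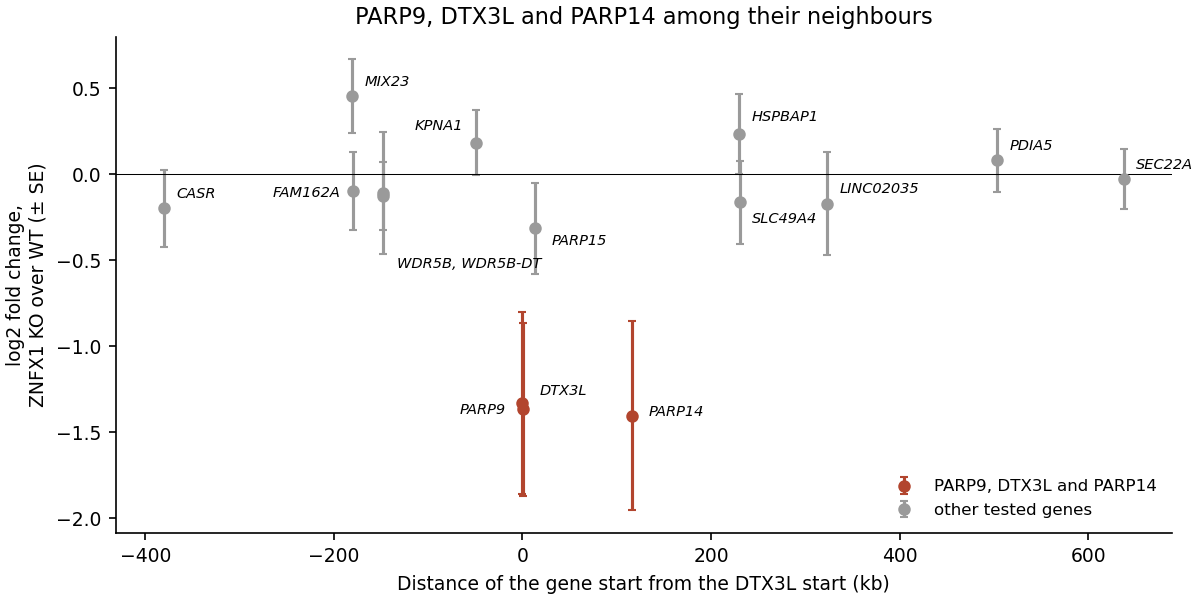
log2 fold change of ZNFX1 KO over WT with its standard error for the tested genes within 500 kb of the PARP9 to PARP14 stretch, by the distance of each gene start from the DTX3L start in kb. PARP9, DTX3L and PARP14 sit between -1.40 and -1.33, and the 12 other genes between -0.31 and 0.45.

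The other PARP family genes held both higher and lower values in the KO. Of 12, 12 were tested and 0 called, 9 had a negative log2 fold change, and the median was -0.31 (-0.03 without WT 2). PARP1, the main DNA damage-activated PARP, averaged 69.1 ± 6.33 TPM in the KO and 41.7 ± 23.7 TPM in WT (SD, n = 3 each, log2 fold change 0.76). TNKS (tankyrase), which builds ADP-ribose chains at telomeres, averaged 16.0 ± 1.84 TPM in the KO and 20.8 ± 3.18 TPM in WT (-0.36). PARP4, the PARP of vault particles, averaged 27.6 ± 3.86 TPM in the KO and 26.8 ± 3.19 TPM in WT, and TIPARP, a target of the aryl hydrocarbon receptor, 22.9 ± 5.72 TPM in the KO and 24.2 ± 4.07 TPM in WT. PARP8 averaged 1.04 ± 0.367 TPM in the KO and 2.45 ± 0.604 TPM in WT, with a log2 fold change of -1.28, and of -1.03 without WT 2. Every KO library of PARP8 was below the WT libraries, as for 10.8% of tested genes in CPM. PARP16, a PARP of the endoplasmic reticulum, averaged 2.67 ± 0.343 TPM in the KO and 4.62 ± 1.73 TPM in WT (-0.87). None of these 6 was called, but PARP8 was called by DESeq2 (-1.26) and with no filter (-1.24). Without WT 3, where 9.02% of genes were called, PARP1 (1.13), PARP8 (-1.41) and PARP16 (-1.20) were called. Without WT 2, PARP1 stood at 0.49 and PARP16 at -0.61.

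Partners and counterparts of the 6 genes were read from further lists, each with 0 called. Of 12 cofactors of ZAP and RNA decay genes, 7 had a negative log2 fold change and the median was -0.09. DDX17, a helicase that binds ZAP, averaged 53.0 ± 4.69 TPM in the KO and 45.5 ± 6.48 TPM in WT (0.18). Of 4 other Deltex ligases, 2 were tested, DTX2 at -0.30 and DTX1 at -2.31, the DTX1 level being 0.158 ± 0.131 TPM in the KO and 0.776 ± 0.173 TPM in WT (SD, n = 3 each). Of 10 genes that remove or read ADP-ribose, 7 were tested with a median of 0.05. MACROH2A1, a histone variant with a macrodomain, was the highest of these at 56.5 ± 2.50 TPM in the KO and 44.1 ± 19.1 TPM in WT (0.36). Of 9 genes of NAD supply, 8 were tested with a median of -0.03, and NAMPT, which makes the NAD precursor that salvage depends on, averaged 128 ± 27.5 TPM in the KO and 123 ± 29.8 TPM in WT.

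The genes most like the 6 across libraries were ranked by the Pearson correlation of log2-CPM with the mean of the 6, over 6 libraries, among 10045 protein-coding genes whose log2-CPM averaged 2 or more. With 6 points of which 1, WT 2, lies far out, high values are easy to reach, and 98 genes had an r of at least 0.95. The 10 highest were CMTR1, SUPV3L1, PLXNA3, IRF2BPL, CLDN15, ZNF528, INPP5K, SPOCD1, OASL and FAM3A, each at r = 0.99. For CMTR1, an mRNA cap methyltransferase, rho was 1.00, and r was 0.99 without the farthest libraries WT 2 and KO 2. This order rests largely on the gene row of PARP10 in KO 2, the row that held 7.96 fragments. The mean profile was -0.28, -0.85 and -0.45 in ZNFX1 KO 1 to 3 with all 6 genes, and -0.35, -0.38 and -0.49 with PARP10 left out. Only 1 of the 10, ZNF528, was among the 10 highest without PARP10, and CMTR1 was then at r = 0.97 and in place 31. IFIT3, IFI44 and IFIT5, all interferon-stimulated genes, were among the 10 highest without PARP10, each at r = 0.99.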

How the data were processed

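RNA of 6 TYK-nu samples, 3 ZNFX1 KO and 3 WT, was sequenced from strand-marked libraries of total RNA, per the labels' protocols. Sample titles gave the groups and replicate numbers. The authors ran Salmon, and their deposited files hold, per row, estimated counts of fragments, TPM values and lengths, per the labels. The submitters' processing notes also name FastQC, Trimmomatic and DESeq2. Build, annotation release and use of strand in counting: not given in the sources used here. Each file has 62260 gene rows, which were tested, and 134909 transcript rows that stand apart from their gene and take 9.93% to 10.7% of a library's fragments.

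Estimated counts were rounded to whole numbers, filtered by filterByExpr (14166 genes kept), scaled by TMM and tested with the two-sided quasi-likelihood test of edgeR 4.0.16 under R 4.3.3. Genotype was the model's sole term, and p was adjusted by Benjamini-Hochberg over the genes tested. Called means an adjusted p under 0.05. A standard error is the size of the log2 fold change over the root of its F value. The prior count of log2-CPM was 2. An exact permutation test of each of the 6 genes over libraries was run as well. The members and the gene lists were chosen with earlier results of these data known, so their direction is not independent evidence.

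All 6 genes are named, as is ZNFX1. From each other list the 4 with the highest mean TPM could be named, with any called or at 0 and all of a list of 6 or fewer, and so could the 10 genes most alike. PARP8, PARP15, PARP16, KPNA1, KDM7A, KDM7A-DT, GRINA, OPLAH, IFIT3, IFI44, IFIT5, IRF9, MX2, XAF1, EPSTI1 and the marker genes were named where the account needed them, after their values were seen. Some genes of the lists are not reported here. A gene table named 62260 of 62260 gene rows. Coordinates and overlaps are from GENCODE 29 on GRCh38 (57833 gene rows matched without version) and promoters from RefSeq.

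In simulated counts (13904 genes, 200 changed) the ZNFX1 KO against WT test found 30% of 2-fold and 90% of 4-fold changes, with 11 false calls among 131. Every simulated library was drawn independently, and the changed genes were taken from those averaging at least 2 CPM. No simulated library was shifted as WT 2 was for the members, so these shares need not hold for them. Library pairs differed beyond sampling noise and none was a duplicate. Alternatives were other scalings (DESeq2 size factors, library totals), filters (none, 1 CPM in 3 libraries) and tests (DESeq2 1.42.0, voom of limma 3.58.1), an offset by effective length, limma on TPM with 1 or 0.1 added before log2, a replicate block, joined transcript rows, and each library left out. Joined rows without WT 2, and likeness to the mean without PARP10, were added after the data were seen.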

Additional observations from a re-analysis of the deposited data

Results flagged for a closer look

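Among transcripts listed in rows of their own, outside the main comparison, 2 reached at least 10 fragments in a KO library and stood there above every WT library. PARP10-209 had 37.04 fragments in ZNFX1 KO 2 and 0 in KO 1, KO 3 and all WT libraries. ZC3HAV1-202 had 35.7, 100.819 and 50.1 fragments in ZNFX1 KO 1 to 3, against 74.4, 0 and 0 in WT 1 to 3, so that KO 1 and KO 3 lay below WT 1. Neither difference was tested by row.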

How the results depend on the processing

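The count of called genes was 103. It was 602 with no filter, 579 with DESeq2, 187 with joined transcript rows, 66 with log2(TPM + 0.1), 48 with log2(TPM + 1) and 14 with the replicate block, and between 2 (without KO 2) and 1315 (without WT 3) when 1 library was left out. Same-numbered libraries deviated together in no consistent way (r = 0.13, -0.04 and 0.01). The labels give no pairing, and these values do not decide whether the numbers pair samples. The block called none of the 6 genes (PARP9 at -1.06). With no filter PARP9 (-1.32), PARP10 (-2.12) and PARP12 (-1.21) were called, and DESeq2 called PARP12 (-1.24). The cause was not tested. Leaving out 1 library moved the log2 fold change of PARP9 over -1.69 to -0.43, PARP10 over -2.66 to -1.11, PARP12 over -1.50 to -0.64, PARP14 over -1.75 to -0.29, DTX3L over -1.69 to -0.29 and ZC3HAV1 over -0.068 (without WT 1) to 0.15. Without WT 3, PARP9, PARP12 and DTX3L were called, where 9.02% of genes were. ZC3HAV1 was -0.0087 with library totals, -0.051 with the effective length offset, -0.010 with log2(TPM + 1) and -0.0092 with log2(TPM + 0.1). Of 108 values of the 6 genes under alternatives, 96 kept direction and side of the threshold, 7 became called and 5 changed sign, all 5 of ZC3HAV1. PARP10 had few fragments even with rows joined (68.0 in KO 2).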
